A study of Mus musculus with 64 samples.

Results

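The comparison covered 16 of the 64 mouse hearts of the series: the 8 hearts taken 4 weeks after transverse aortic constriction (TAC) and the 8 hearts taken 1 week after it, each sequenced as 1 library of whole cardiac tissue. They were chosen by their labelled surgery and week, with no measured value. TAC narrows the aorta so that the left ventricle pumps against a raised pressure. Each week held 4 WTTAC and 4 KOTAC hearts, so the change from week 1 to week 4 was taken within genotype and averaged. KO mice lacked Ndufs4, a subunit of mitochondrial complex I, in the heart, through a floxed allele and a Cre recombinase driven by the αMHC promoter, which is active in cardiomyocytes and not in the other cells of the heart. WT and KO mice were adult males on a C57BL6 background, aged 3 to 4 months when they received surgery, so age at harvest differed with the week. The change in TAC hearts was set against the same change in 16 sham hearts (WTSH and KOSH, 4 hearts of each at weeks 1 and 4), whose surgery left the aorta unconstricted. The question was which of the changes present 1 week after TAC had receded by week 4.

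Pressure overload sets off an early wave of matrix production by activated fibroblasts, entry of monocytes and growth of macrophages, division of non-myocytes, and a growth program in cardiomyocytes that includes fetal genes. Cardiomyocytes at the same time lower many genes of fatty acid oxidation, their main fuel pathway. In bulk tissue, fewer cells of a type and less RNA per cell cannot be told apart.

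Expression was given as FPKM, fragments scaled by gene length and library total, for 30285 gene entries, and held no read counts, which leaves library depth unknown. Tests were made by limma on log2(FPKM + 1), which understates the change of low genes, over 13653 genes that reached an FPKM of 1 in 4 or more libraries, and a gene was called at an adjusted p under 0.05 (Benjamini-Hochberg). In what follows, changes and differences are on this log2 scale with their standard error (SE), and levels of single hearts are in FPKM. Ndufs4, the targeted gene, lay between 21.7 and 38.9 FPKM in the 16 KO hearts and between 59.0 and 155 FPKM in the 16 WT hearts of weeks 1 and 4, without overlap (exact permutation test, p = 0.0286 in each of the 4 comparisons of 4 vs. 4 hearts, the smallest p that 70 splits allow). Its change from week 1 to week 4 in TAC hearts was 0.22 (SE 0.134, limma adjusted p = 0.211). Tnnt2, cardiac troponin T, lay at 5123 to 6344 FPKM in the TAC hearts of week 1 and 4508 to 6266 FPKM in those of week 4. The summed FPKM of 26 sarcomere and cardiomyocyte genes was 41600 to 52900 at week 1 and 49900 to 60500 at week 4. More genes reached an FPKM of 1 in TAC hearts at week 1 (12441 to 13101) than at week 4 (12040 to 12497), a mean difference of -503.75 genes (exact permutation test within genotype, two-sided, p = 0.000408), while the sham hearts differed by 77.75 genes (exact permutation test, p = 0.296). All tests were two-sided.

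A pair of hearts stood apart from their groups at week 4. WTTAC heart 2 lay at the sham level, with a median difference of -0.02 from sham over the 857 acute risers defined below, and KOSH heart 1 held raised levels of such genes (Timp1 at 65.9 FPKM against 2.17 to 3.02 FPKM in the other 3 KOSH hearts). Counts over all genes for the TAC change minus the sham change, and of receded genes, are therefore also given without both. Counts of gene lists are not. At week 1, WTTAC heart 5 and KOTAC heart 6 had the smallest matrix response of their groups.

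TAC hearts changed widely between weeks 1 and 4, and mostly downward. Of 13653 genes, 4374 (32%) were lower and 350 (2.56%) higher at week 4 than at week 1, with 218 lower and 9 higher by at least 2-fold. In the sham hearts limma called 0 genes between the same weeks (898 at an unadjusted p under 0.05, smallest adjusted p = 0.324), and 10 when hearts were weighted by their quality. The difference between the TAC change and the sham change was called for 3565 genes, 3521 lower (25.8%) and 44 higher (0.322%). This difference equals the TAC vs. sham contrast at week 4 minus that at week 1. Without WTTAC heart 2 and KOSH heart 1 of week 4 it was called for 2278 genes, 2247 of them lower.

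The median of all genes itself moved by -0.135 in TAC hearts, by 0.05 in sham hearts and by -0.189 in the difference, so that many small falls lie near the general shift. Scaling the hearts by the median of ratios gave 1515 higher and 2128 lower genes for the TAC change, and quantile normalization gave 1943 higher and 1849 lower genes. Changes taken relative to the median of all genes gave 1189 higher and 1848 lower genes. For the TAC change minus the sham change, the same 3 settings called 360 higher and 1071 lower genes, 590 higher and 982 lower genes, and 239 higher and 736 lower genes, respectively. The balance of higher and lower calls therefore changed with the scaling, and gene lists are given with their counts under these 3 scalings where a direction turned.

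At week 1, TAC vs. sham hearts had 7440 genes higher (54.5%) and 1081 lower (7.92%). At week 4 there were 1523 higher (11.2%) and 649 lower (4.75%). Of the 857 genes that were at least 2-fold higher at week 1, 710 (82.8%) had receded by week 4, meaning that the TAC change minus the sham change was called in the opposite direction, and 0 had grown further. Their median difference from sham went from 1.30 at week 1 to 0.49 at week 4, and 516 of them were still called above sham. Of the 66 genes at least 2-fold lower at week 1, 10 (15.2%) had receded, 55 were still called below sham, and the median went from -1.24 to -0.84. Without WTTAC heart 2 and KOSH heart 1 of week 4, 588 of the 857 (68.6%) and 5 of the 66 (7.58%) had receded, with 638 and 56 still called against sham, and the medians at week 4 were 0.60 and -0.91. Both counts share the week 1 hearts between the choice of genes and the change, so they describe the response and test nothing. The shift of all genes by -0.189 in the TAC change minus the sham change also counts toward receding for risers and against it for fallers. The contrast between 82.8% and 15.2% can therefore not be read apart from the scaling, and neither share is given under the other scalings. Among genes called at week 1 with any fold, the number that had receded was smaller under each other scaling. How many genes were called at week 1 under those scalings is not given, so no share follows from this.

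The share of the week 1 difference that was left at week 4 had a median of 0.362 among the 857 acute risers (interquartile range 0.269 to 0.462) and of 0.63 among the 66 acute fallers (interquartile range 0.538 to 0.756). In 177 risers (20.7%) less than 0.25 of the difference was left and in 20 (2.33%) more than 0.75. Among fallers these numbers were 2 (3.03%) and 19 (28.8%). With WTTAC heart 2 and KOSH heart 1 of week 4 left out, the median share was 0.447 among risers and 0.709 among fallers. The share divides by the week 1 difference that chose the genes, and it carries the shift of all genes. The contrast between risers and fallers can therefore not be read from it. By these estimates most risers stood between the sham level and their week 1 level. At week 4, 6 had an estimate below sham, and none of these was called (limma adjusted p of 0.337 or more). Among them were H19 (1.75 at week 1, -0.41 at week 4, limma adjusted p = 0.423) and Gpr34 (1.08 and -0.02, limma adjusted p = 0.94), both chosen after their values were seen. Mitochondrially encoded and other entries that were listed at 0 in some hearts made up 6 of the 857 and 3 of the 66. Beyond these 3, the fallers held the ribosomal RNA mt-Rnr2 and the short tRNA entries mt-Ta, mt-Tc, mt-Te, mt-Tg, mt-Tl1, mt-Tm, mt-Tn, mt-Tp and mt-Ty. Such small RNA entries were left out of the ranking of genes but are part of all numbers given for the 66.

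**Figure D1:**
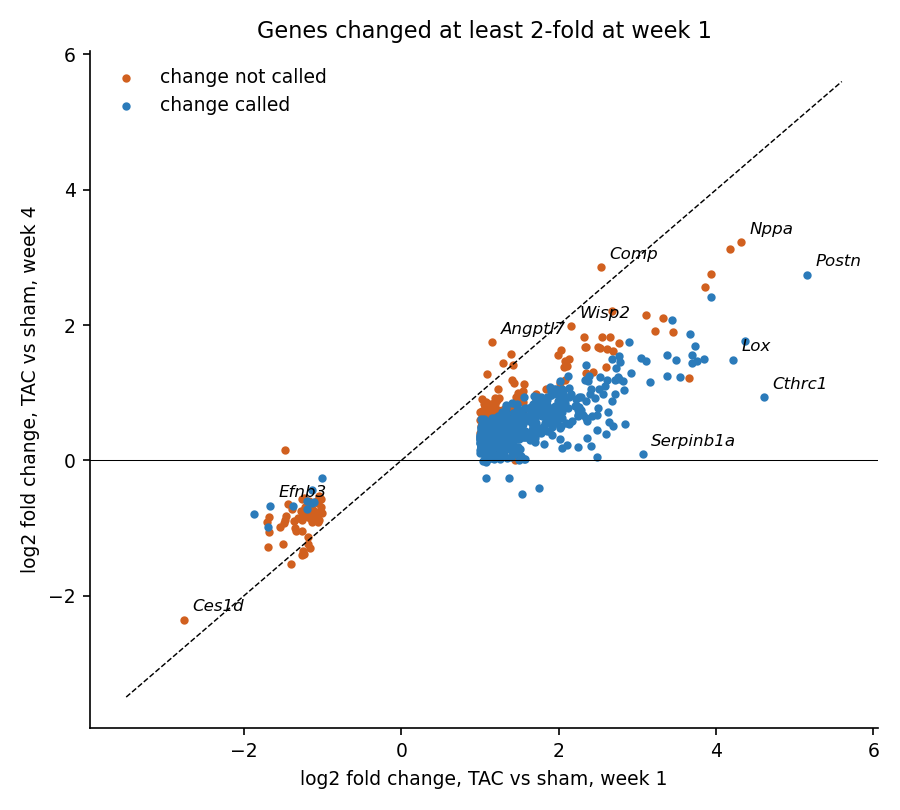
Difference from sham at week 4 (vertical axis) against that at week 1 (horizontal axis), both as log2 fold change of TAC vs. sham averaged over genotypes, for the acute genes of at least 2-fold, less 9 entries listed at 0 in some hearts. The dashed line marks equal differences, blue points are genes whose TAC change minus sham change was called and orange points are genes where it was not. Risers lie mostly below the line, with a median of 1.30 at week 1 and 0.49 at week 4, and fallers lie nearer to it, with -1.24 and -0.84. The choice of genes at week 1 and the shift of all genes are part of both distances, so they cannot be compared.

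Choosing the acute genes in one genotype and measuring them in the other removes the shared hearts. In WTTAC vs. WTSH at week 1, 6992 genes were higher (51.2%) and 659 lower (4.83%). Among the 1210 genes at least 2-fold higher, the TAC change minus sham change in KO hearts was downward for 95.5%, against 67.8% of all genes, and for 92.1% relative to the median of all genes. Their median difference from sham in KO hearts went from 0.98 to 0.53. In KO hearts, however, limma called 1 of these 1210 genes, and 422 had an unadjusted p under 0.05. Among the 596 genes at least 2-fold higher in KOTAC vs. KOSH, where 4354 genes were higher (31.9%) and 684 lower (5.01%), 97.8% moved downward in WT hearts, against 84.9% of all genes, and 479 were called. Their median in WT hearts went from 1.68 to 0.44.

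Acute fallers were treated likewise. The 72 genes at least 2-fold lower in WTTAC vs. WTSH stood at -1.05 in KO hearts at week 1 and -0.92 at week 4, and 47 of them (65.3%) were closer to sham at week 4. The TAC change minus sham change in KO hearts was upward for 47 (65.3%) against 32.2% of all genes, and limma called 0 of them higher (3 at an unadjusted p under 0.05). The 62 genes chosen in KO hearts stood at -1.16 and -0.62 in WT hearts, with 52 (83.9%) closer to sham. Their TAC change minus sham change in WT hearts was upward for 55 (88.7%) against 15.1% of all genes, and limma called 7 of them higher.

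Heart by heart, the median difference of the 857 risers from the sham hearts of the same week and genotype was 1.63, 1.76, 1.84 and 0.86 in WTTAC hearts 1, 2, 4 and 5 at week 1. It was 1.29, 1.07, 1.53 and 0.73 in KOTAC hearts 1, 2, 3 and 6. At week 4 it was 0.54, -0.02, 0.70 and 0.29 in WTTAC hearts 1 to 4 and 0.42, 0.82, 0.53 and 0.75 in KOTAC hearts 1, 2, 3 and 5. The risers were chosen in these same week 1 hearts, so high week 1 values and some later fall follow from the choice. All 8 week 1 hearts were high in relation to sham, but KOTAC heart 6 of week 1 lay below KOTAC hearts 2 and 5 of week 4. Measured against the other sham hearts of their group, the 15 sham hearts other than KOSH heart 1 of week 4 lay between -0.20 and 0.13, and KOSH heart 1 of week 4 lay at 0.29. At week 8, 4 weeks later, WTTAC hearts lay at 0.27 to 0.84 and KOTAC hearts at 0.71 to 1.01.

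**Figure D2:**
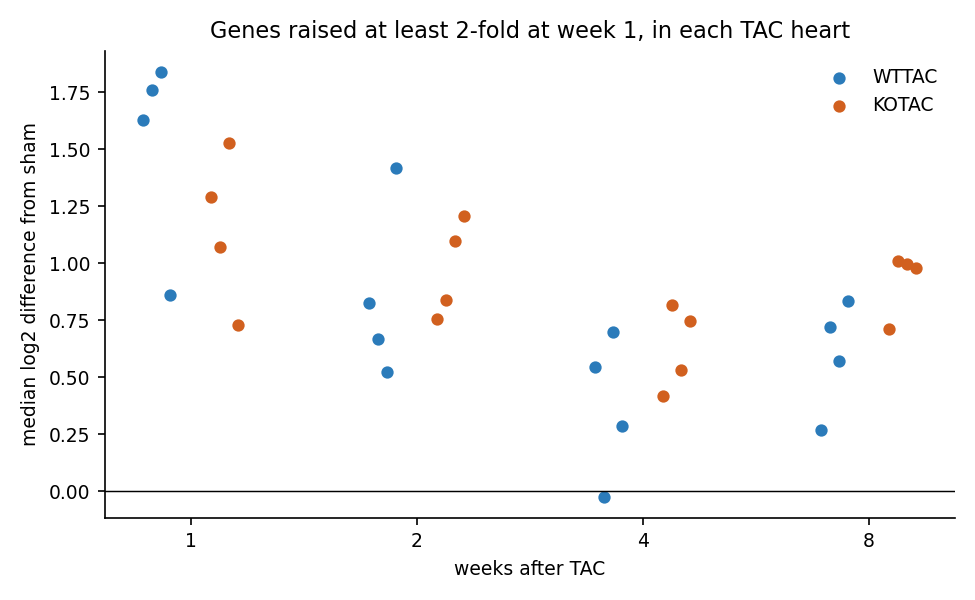
Median log2 difference from sham over the 857 acute risers (vertical axis) in each WTTAC and KOTAC heart at weeks 1, 2, 4 and 8 after surgery (horizontal axis). The risers were chosen in the week 1 hearts shown, so their height at week 1 follows in part from the choice. Each point is a heart; week 1 hearts lie between 0.73 and 1.84, and week 4 hearts between -0.02, which is WTTAC heart 2, and 0.82.

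Matrix genes fell most. Cthrc1, a secreted protein of activated fibroblasts, held 69.1, 85.6, 102 and 5.17 FPKM in WTTAC hearts 1, 2, 4 and 5 at week 1 and 24.3, 20.1, 53.2 and 11.03 FPKM in KOTAC hearts 1, 2, 3 and 6. At week 4 it held 0.985, 0.165, 2.74 and 0.52 FPKM in WTTAC hearts and 2.04, 4.44, 1.62 and 2.02 FPKM in KOTAC hearts. Every heart of week 1 was above every heart of week 4, and WTTAC heart 5 was far below the other week 1 hearts of its group. Cthrc1 (chr15:38908478-38918667, plus strand, mm9) fell by 3.69 (SE 0.354, limma adjusted p = 1.22e-10), the largest fall among all genes ranked, and its difference from sham went from 4.62 to 0.93. Sham hearts held 0.16 to 0.6 FPKM in both weeks.

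Col1a1, which encodes the main chain of type I collagen (chr11:94797538-94814356, plus strand, mm9), held 329, 577, 628 and 113 FPKM in WTTAC hearts and 284, 213, 449.6 and 109 FPKM in KOTAC hearts at week 1. The week 4 values were 51.5, 20.6, 109.6 and 39.0 FPKM in WTTAC hearts and 38.9, 79.1, 55.5 and 77.9 FPKM in KOTAC hearts. The weeks overlapped by 1 heart, WTTAC heart 3 of week 4, which lay just above KOTAC heart 6 of week 1. Col1a1 fell by 2.39 (SE 0.304, limma adjusted p = 3.68e-08), from 3.85 to 1.49 above sham, and was still called at week 4.

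Of 22 collagen chains tested, 20 fell and 0 rose, with a median of -1.50 against -0.135 for all genes, and 20 were lower in the TAC change minus the sham change. At week 1 all 22 were called above sham (median 2.48) and at week 4 19 were (median 0.98). Col5a3 (from 1.70 to 0.27) and Col11a1 (from 1.81 to 0.25) were among those no longer called. The basement membrane chains Col4a3 (0.11, limma adjusted p = 0.415) and Col4a4 (-0.14, limma adjusted p = 0.231) were not called between the weeks. Under the 3 scalings 16 or 17 collagens were lower and at most 1 higher in the TAC change minus the sham change.

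Among 22 genes of collagen processing and crosslinking, 19 fell and 0 rose (median -0.82). Lox, the enzyme that starts collagen and elastin crosslinks, ranged from 12.8 to 108 FPKM at week 1 and from 1.49 to 13.5 FPKM at week 4, with 7 of 8 week 4 hearts below every week 1 heart. It fell by 2.53 (SE 0.326, limma adjusted p = 4.4e-08). Bmp1, which cleaves procollagen, fell by 1.16, P4ha3, a collagen prolyl hydroxylase, by 1.59 and Fkbp10, a collagen chaperone, by 1.07.

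Of 29 matricellular and activated fibroblast genes, 25 fell and 0 rose (median -1.23), 20 of them also relative to sham (12 to 14 under the 3 scalings). Postn, periostin, lay between 249 and 1067 FPKM at week 1 and between 19.7 and 359 FPKM at week 4. In WTTAC hearts of week 4 it held 125, 19.7, 120.0 and 64.3 FPKM, and in KOTAC hearts 95.5, 359, 104 and 289.6 FPKM, of which KOTAC hearts 2 and 5 overlapped the week 1 range. Postn fell by 2.22 (SE 0.375, limma adjusted p = 6.71e-06) and, at 2.75 above sham, was still called at week 4. Fn1, fibronectin, fell by 2.33, Eln, elastin, by 2.34, Ptn, pleiotrophin, by 2.32 and Tnc, tenascin C, by 1.90, the last from 2.60 to 0.39 above sham.

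The smaller matrix groups fell in part. Of 9 small leucine-rich proteoglycans 5 fell (median -1.07), led by Aspn, asporin (-1.80), and including Lum, lumican (-1.22), and Bgn, biglycan (-1.11). Of 22 matrix proteases and inhibitors 14 fell (median -0.51), among them Mmp14, a membrane collagenase (-1.98, from 2.48 to 0.45 above sham), Plau, the urokinase (-0.64), and Adam12 (-0.73). Under the scalings 1 or 2 proteases or inhibitors were called higher. Of 23 genes of TGF-beta, activin and BMP signalling 16 fell (median -0.45), led by Fstl1 (-1.51) and the ligand Tgfb3 (-1.35), with 1 to 3 called higher and 9 or 10 lower under the scalings.

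Of 14 fibroblast markers 11 fell and 1 rose (median -1.02). Thy1 (-1.03) and Tcf21, a transcription factor of cardiac fibroblasts (-1.005), fell from 1.40 and 1.42 above sham to 0.30 and 0.31, levels that were not called. Gsn, gelsolin, rose by 0.72 (SE 0.145, limma adjusted p = 0.000102) from 225 to 368 FPKM at week 1 to 365 to 664 FPKM at week 4. The summed FPKM of the 14 markers was 1190 to 2800 in TAC hearts at week 1, 782 to 1890 at week 4 and 622 to 1060 in the sham hearts of both weeks, with no marker at 0. The part of fibroblast number in the fall of matrix genes was not tested.

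**Figure D3:**
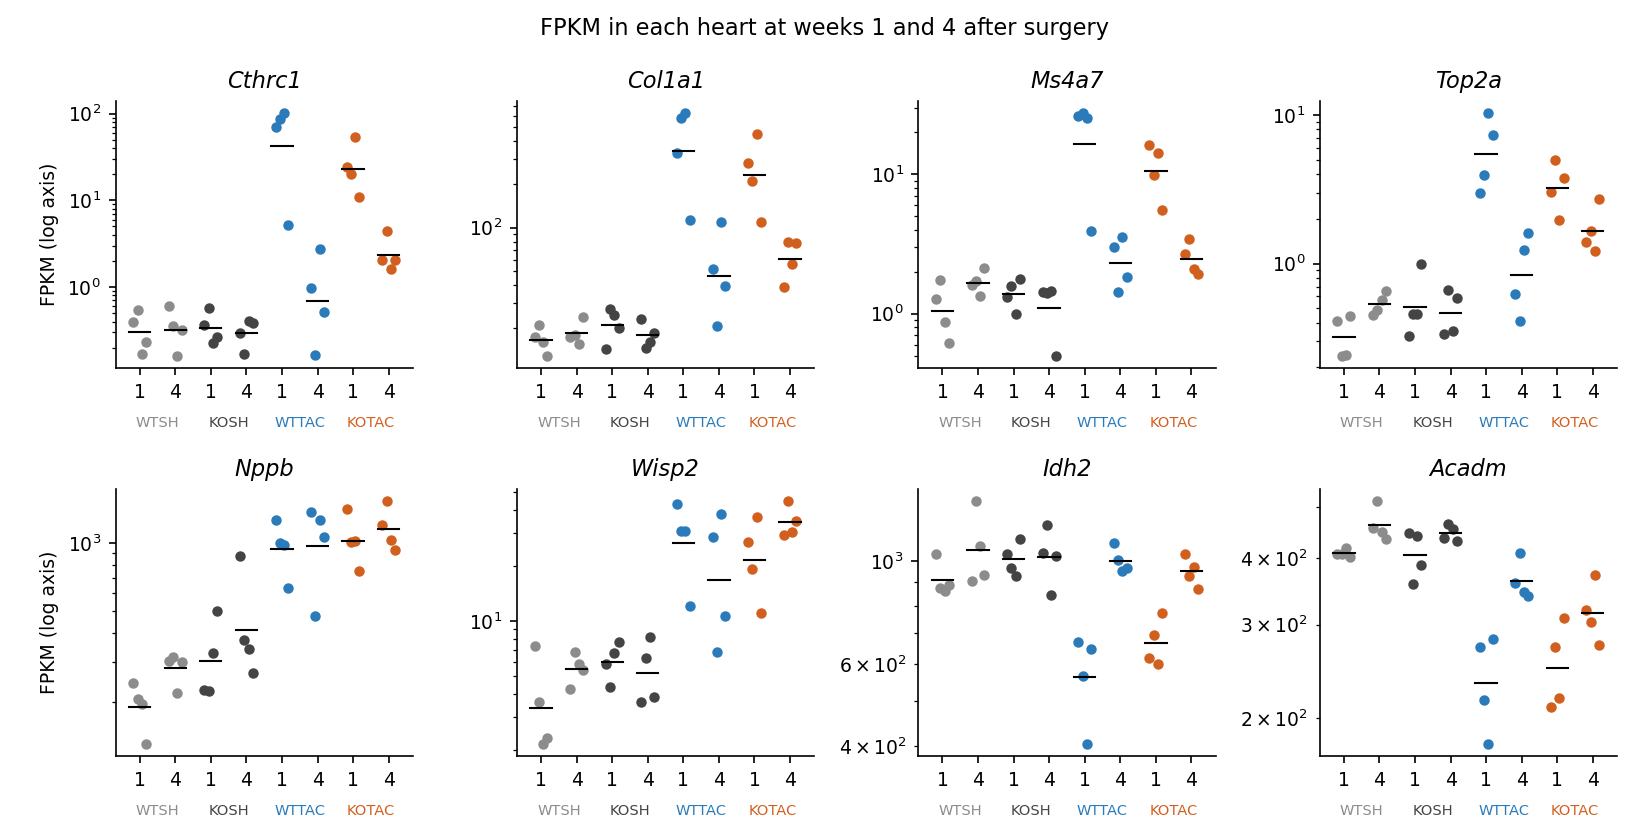
FPKM on a log axis (vertical) of Cthrc1, Col1a1, Ms4a7, Top2a, Nppb, Wisp2, Idh2 and Acadm in WTSH, KOSH, WTTAC and KOTAC hearts at weeks 1 and 4 (horizontal). Points are hearts, 4 in each group, and bars are geometric means. Cthrc1 and Ms4a7 of week 4 lie below all week 1 TAC hearts, Nppb and Wisp2 overlap between the weeks, and Idh2 of week 4 lies above all week 1 TAC hearts.

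Macrophage genes stood closer to sham at week 4 than at week 1. Ms4a7, a macrophage membrane protein (chr19:11395529-11410636, minus strand, mm9), held 26.3, 27.6, 25.5 and 3.92 FPKM in WTTAC hearts and 16.2, 9.84, 14.2 and 5.56 FPKM in KOTAC hearts at week 1. By week 4 the levels were 3.01, 1.44, 3.57 and 1.84 FPKM in WTTAC hearts and 2.67, 3.46, 2.09 and 1.93 FPKM in KOTAC hearts. No week 4 heart reached the lowest week 1 heart, WTTAC heart 5. Ms4a7 fell by 2.08 (SE 0.246, limma adjusted p = 9.81e-09), from 2.69 to 0.51 above sham. At week 4, 4 of the 8 TAC hearts were still above every sham heart of that week.

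Of 24 macrophage and monocyte markers 19 fell and 0 rose (median -0.95), and 19 fell relative to sham (14 under each of the 3 scalings). At week 1 21 were called above sham (median 1.39) and at week 4 5 were (median 0.36). In single hearts of week 4 the list median above sham was 0.27, -0.05, 0.69 and 0.13 in WTTAC hearts 1 to 4. It was 0.17, 0.57, 0.35 and 0.61 in KOTAC hearts 1, 2, 3 and 5. Ccr2, the receptor that draws monocytes into tissue, went from 1.74 to 14.3 FPKM at week 1 to 0.571 to 2.07 FPKM at week 4, and fell by 1.59. Emr1 (F4/80) fell by 1.28, Csf1r, the growth factor receptor of macrophages, by 1.13, and Trem2 by 1.48. Lyve1 and Cd163, which mark resident macrophages, were not called between the weeks (0.22 with limma adjusted p = 0.47, and -0.22 with limma adjusted p = 0.447) nor against sham at week 1 (-0.45 and 0.12). Mrc1 and Stab1, also macrophage genes, receded from 1.07 and 1.14 above sham to 0.12 and 0.31. Their limma adjusted p for the TAC change minus the sham change was 0.000156 and 0.00227. All of these were picked after their values were seen, so they do not show how resident macrophages as a group changed. The summed FPKM of 25 macrophage markers was 283 to 690 at week 1, 149 to 281 at week 4 and 108 to 232 in sham hearts, so that week 4 TAC hearts overlapped the sham range.

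C3ar1, the receptor for the complement fragment C3a, lay between 2.34 and 8.20 FPKM at week 1 and between 0.791 and 2.18 FPKM at week 4, without overlap, and fell by 1.32 (SE 0.126, limma adjusted p = 1.22e-10). Its difference from sham went from 1.44 to 0.12. Of 16 complement genes 7 fell and 1 rose (median -0.33), where 32% of all genes fell and 2.56% rose. The falls were led by C3ar1 and the 3 chains of C1q (C1qb -1.28, C1qc -1.13, C1qa -1.12), and the rise was C7 (0.73, limma adjusted p = 0.003). Of 20 chemokines and cytokines 7 fell and 1, Cxcl14 (0.68, limma adjusted p = 0.0171), rose, among the falls Ccl8 (-1.32) and Cxcl16 (-1.03), a share of falls near the 32% of all genes called lower.

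All 9 genes of MHC class II antigen presentation fell (median -0.92), 4 of them relative to sham and 1 under the scalings. Cd74, the invariant chain, spanned 54.0 to 358 FPKM at week 1 and 51.7 to 103 FPKM at week 4, with the lower part of both ranges shared. At week 1 all 9 were above sham (median 1.54) and at week 4 1, Ctss, was called. Of 17 interferon response genes 6 fell (median -0.27), Oas1a and Irf7 by 0.45 each, and 4 fell relative to sham, of which 0 were called under the 3 scalings. Their share of falls was near the 32% of all genes called lower.

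Of 5 tested lymphocyte markers 3 fell and the B cell gene Cd79a rose (0.41, limma adjusted p = 0.0051). Their summed FPKM, over 15 markers, was 5.26 to 13.9 at week 1 and 4.22 to 8.37 at week 4. Of 3 tested neutrophil markers 1, S100a9, rose and 1, Csf3r, fell (-0.39, limma adjusted p = 0.00389), and the summed FPKM of 10 markers overlapped between the weeks (1.59 to 7.4 and 2.64 to 14.5). S100a9, a calcium-binding protein of neutrophils and monocytes, spanned 0.444 to 3.01 FPKM at week 1 and 1.29 to 7.05 FPKM at week 4, with overlap, and rose by 1.00 (SE 0.314, limma adjusted p = 0.0105). S100a8, its partner, rose relative to sham by 1.40 (limma adjusted p = 0.0137), while the TAC change alone, 0.75, was not called (limma adjusted p = 0.0513). Both were below sham at week 1, and sham hearts of week 1 spread widely (S100a9 at 0.502 to 8.03 FPKM). Ly6g, which defines neutrophils, was at 0 in every TAC heart of both weeks.

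Cell cycle genes, low in the adult heart, were lower at week 4 than at week 1 in nearly every case. Of 25 S phase genes 22 fell and 0 rose (median -0.51), and of 27 genes of mitosis 25 fell and 0 rose (median -0.76). The counts were the same relative to sham, and under the 3 scalings 11 to 14 and 19 to 21 were called lower. Mcm4, part of the replicative helicase, held 3.89, 4.17, 5.95 and 4.68 FPKM in WTTAC hearts and 4.18, 3.98, 3.59 and 3.73 FPKM in KOTAC hearts at week 1. Week 4 hearts held 2.58, 1.67, 2.45 and 2.07 FPKM in WTTAC hearts and 1.71, 2.74, 2.53 and 2.84 FPKM in KOTAC hearts. The weeks did not overlap, and the spread within each was small. Mcm4 fell by 0.67 (SE 0.0665, limma adjusted p = 3.66e-10) to 0.04 above sham. Tk1, thymidine kinase, fell by 0.96 and Rrm1, a subunit of ribonucleotide reductase, by 0.61, both to levels near sham (-0.08 and 0.02).

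Top2a, the topoisomerase of mitotic chromosomes, held 2.97, 3.97, 10.3 and 7.36 FPKM in WTTAC hearts and 3.01, 4.95, 1.96 and 3.77 FPKM in KOTAC hearts at week 1. At week 4 it held 0.619, 0.41, 1.23 and 1.61 FPKM in WTTAC hearts and 1.39, 1.65, 1.22 and 2.71 FPKM in KOTAC hearts. Only KOTAC heart 5 of week 4 overlapped the week 1 range, above KOTAC heart 3. Top2a fell by 1.23 (SE 0.183, limma adjusted p = 7.4e-07), from 1.89 to 0.59 above sham. Mki67 (-1.03), Fam64a (-1.02), Ccnb2, cyclin B2 (-0.98), and Foxm1, a transcription factor of mitotic genes (-0.71), fell with it. The order of hearts differed from that of the matrix genes: WTTAC heart 5 of week 1, lowest of its group in collagens (list median 1.76 above sham against 2.71 to 3.33) and macrophage markers (0.88 against 1.79 to 2.23), lay within the range of the others in mitosis genes (1.52 against 0.92 to 2.02).

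Promoters of mitotic genes are known for a CHR (cell cycle genes homology region), through which the genes are held low outside of division, and for CCAAT boxes, which NF-Y binds. Because these genes fell together, the promoters are shown for the 5 mitosis members with the largest test statistics that had an entry in the RefSeq promoter table, 250 bases before to 50 bases after the annotated start, read 5′ to 3′ on the gene's strand (GRCm38.p6). Capitals mark TTTGAA or TTCGAA, on either strand, and CCAAT, on either strand, which do not overlap each other here. Kif23 encodes a motor of the central spindle and Anln the cytokinesis protein anillin. The windows are Anln chr9:22389157-22389456, Kif23 chr9:61946750-61947049, Ccnb2 chr9:70421505-70421804, Mki67 chr7:135716330-135716629 and Top2a chr11:99024140-99024439, all on the minus strand.
Anln: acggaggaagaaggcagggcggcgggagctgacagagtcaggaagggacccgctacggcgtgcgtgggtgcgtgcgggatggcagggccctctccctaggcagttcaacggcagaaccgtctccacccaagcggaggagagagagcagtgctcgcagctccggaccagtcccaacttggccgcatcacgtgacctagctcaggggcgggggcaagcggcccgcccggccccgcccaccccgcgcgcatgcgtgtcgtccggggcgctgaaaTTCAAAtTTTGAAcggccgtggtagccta
Kif23: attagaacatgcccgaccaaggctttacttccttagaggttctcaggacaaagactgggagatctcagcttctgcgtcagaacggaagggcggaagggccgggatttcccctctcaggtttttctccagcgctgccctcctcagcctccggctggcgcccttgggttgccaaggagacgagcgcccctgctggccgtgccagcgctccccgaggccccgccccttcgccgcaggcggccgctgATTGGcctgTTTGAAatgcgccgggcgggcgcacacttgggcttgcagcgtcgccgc
Ccnb2: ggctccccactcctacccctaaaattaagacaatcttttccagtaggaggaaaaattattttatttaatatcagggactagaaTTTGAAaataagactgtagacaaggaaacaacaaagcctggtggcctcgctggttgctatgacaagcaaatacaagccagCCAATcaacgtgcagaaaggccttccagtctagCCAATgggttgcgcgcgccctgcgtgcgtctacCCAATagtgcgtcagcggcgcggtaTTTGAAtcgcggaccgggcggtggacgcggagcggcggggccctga
Mki67: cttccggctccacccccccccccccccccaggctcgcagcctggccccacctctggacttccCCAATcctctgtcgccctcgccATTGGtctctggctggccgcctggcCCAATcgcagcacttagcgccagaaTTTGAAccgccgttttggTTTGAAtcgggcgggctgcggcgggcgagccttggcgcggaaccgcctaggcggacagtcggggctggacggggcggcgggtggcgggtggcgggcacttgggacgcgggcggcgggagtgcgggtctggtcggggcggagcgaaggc
Top2a: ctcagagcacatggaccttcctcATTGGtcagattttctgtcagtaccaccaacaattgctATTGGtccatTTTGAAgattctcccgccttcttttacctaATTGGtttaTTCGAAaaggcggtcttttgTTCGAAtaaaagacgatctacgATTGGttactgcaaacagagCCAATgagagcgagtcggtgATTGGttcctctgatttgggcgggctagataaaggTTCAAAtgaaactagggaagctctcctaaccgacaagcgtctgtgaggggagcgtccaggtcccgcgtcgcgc

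Of the 27 tested mitosis members 21 had a promoter in the table, and 17 of these (81.0%) held a CHR, 17 (81.0%) a CCAAT box and 16 (76.2%) both. Of all 27025 promoters of this length in the table, 19.4% held a CHR, 37.9% a CCAAT box and 7.7% both. The 22 S phase promoters held a CHR in 18.2% and a CCAAT box in 63.6%, the 17 collagen promoters in 11.8% and 47.1%, and the 19 macrophage promoters in 21.1% and 47.4%. Top2a held 4 CHR and 6 CCAAT matches, Mki67 and Ccnb2 2 and 3 each, Kif23 1 and 1, and Anln 2 and 0. A match is a run of letters and not a bound site.

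Genes of the actin cytoskeleton fell in a block. Of 32 tested, 28 fell and 0 rose (median -0.57), 25 relative to sham and 12 to 17 under the 3 scalings. Tmsb10, which sequesters actin monomers, spanned 18.7 to 43.9 FPKM at week 1 and 7.72 to 20.1 FPKM at week 4, with 6 of 8 week 4 hearts below every week 1 heart. S100a11 fell by 1.11, Vim, vimentin, by 0.98, Tpm4, a cytoskeletal tropomyosin, by 0.72 and Cfl1, cofilin, by 0.66. At week 4, 21 of the 32 were still called above sham, against 31 at week 1.

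Of 14 smooth muscle and pericyte markers 7 fell and 0 rose (median -0.26), 7 relative to sham and 4 under the scalings. Cnn1, calponin, went from 2.43 to 22.4 FPKM at week 1 to 0.775 to 4.56 FPKM at week 4 and fell by 1.91 (SE 0.254, limma adjusted p = 8.03e-08), ending 0.19 above sham. Acta2 (-0.74) and Tagln (-0.91), which myofibroblasts also express, and the pericyte receptor Pdgfrb (-0.55) fell as well. The summed FPKM of the 14 markers was 1240 to 2740 at week 1, 996 to 1440 at week 4 and 771 to 1110 in sham hearts. Of 18 endothelial markers 1 rose, Flt1 (0.31), and 1 fell, Aplnr (-0.64), and of 20 angiogenic signals 2 rose, Epas1 (0.29) and Edn3 (0.56), and 3 fell, among them Edn1, endothelin 1 (-0.46). Relative to sham 0 endothelial markers were called by limma.

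Genes of cardiomyocyte stress receded less. Nppb, B-type natriuretic peptide, held 1267, 1003, 978 and 630 FPKM in WTTAC hearts and 1408, 1009, 1019 and 749 FPKM in KOTAC hearts at week 1. The week 4 values were 1373, 478, 1264 and 1066 FPKM in WTTAC hearts and 1202, 1533, 1032 and 930.5 FPKM in KOTAC hearts. All week 4 hearts lay within the week 1 range except WTTAC heart 2, the lowest, and KOTAC heart 2, the highest. Nppb changed by 0.11 (SE 0.357, limma adjusted p = 0.845) and was above sham at both weeks, by 2.03 and 1.63 (limma adjusted p = 0.00124 at week 4). Nppa, atrial natriuretic peptide, ranged from 2133 to 8604 FPKM at week 1 and from 310.2, in WTTAC heart 2, to 7674 FPKM at week 4, a change of -1.10 (SE 0.473, limma adjusted p = 0.0656), and stood 4.32 and 3.23 above sham.

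Of 25 stress and fetal genes 6 fell and 0 rose (median -0.29), a smaller share of falls than the 32% of all genes. Called above sham were 23 at week 1 (median 1.49), where 54.5% of all genes were. At week 4 16 were (median 0.82), where 11.2% of all genes were. Those that fell included Des, desmin (-0.85), Uchl1, a ubiquitin hydrolase (-1.32), and Sprr1a, a cross-linked envelope protein of stressed cells (-2.22, from 4.37 to 1.77). Ankrd1, a nuclear and sarcomeric stretch protein (2.34 and 1.68 above sham), Myh7, beta myosin heavy chain (0.79 and 0.73), and Xirp2 (2.10 and 1.40) were not called between the weeks. With median-of-ratios scaling 2 members of the list were called higher and 4 lower for the TAC change. Of 8 atrial markers 0 were called by limma under any scaling, and their summed FPKM, which includes Nppa, was 2160 to 8750 at week 1 and 348 to 7700 at week 4. Myl7, the atrial myosin light chain, was listed at 0 in some TAC hearts and reached 89.3 FPKM in others. In sham hearts it spanned 0.151 to 389.9 FPKM at week 1 and 0.267 to 48.0 FPKM at week 4. Nppa reached 1133 FPKM in the sham hearts of week 1. The part of atrial tissue in the Nppa differences from sham was not tested.

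Wisp2, Comp and Apod were among the 10 risers chosen, after values were seen, for the largest share left at week 4, so their levels are a description. Wisp2, a secreted CCN protein, held 43.5, 30.9, 30.7 and 12.1 FPKM in WTTAC hearts and 26.8, 19.3, 36.7 and 11.1 FPKM in KOTAC hearts at week 1. By week 4 the levels were 28.7, 6.82, 38.1 and 10.6 FPKM in WTTAC hearts and 29.2, 45.1, 30.4 and 34.8 FPKM in KOTAC hearts. The ranges of the weeks overlapped. Comp, a cartilage matrix protein, stood 2.53 above sham at week 1 and 2.86 at week 4. Apod, apolipoprotein D, ranged from 8.45 to 17.3 FPKM and from 8.12 to 29.3 FPKM, and at week 4 all 8 TAC hearts were above all sham hearts of that week.

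Those 10 risers, all of at least 2-fold at week 1, also held Angptl7, Igfbp6 and Dio2, the deiodinase that activates thyroid hormone. The 10 fallers chosen by the same rule held Ces1d, a carboxylesterase, which ranged from 1.35 to 5.39 FPKM at week 1 and 1.63 to 20.3 FPKM at week 4 against 15.9 to 37.4 FPKM in sham hearts (-2.77 and -2.36). Pfkfb1, a regulator of glycolysis (-1.24 and -1.39), and Scn4b, a sodium channel subunit (-1.19 and -1.13), were others. Thbs4 and Cilp, both matrix proteins of activated fibroblasts, stood between the receding and persisting genes, at 2.76 and 3.12 above sham at week 4 after 3.94 and 4.17 at week 1. Ctgf ranged from 68.0 to 412 FPKM at week 1 and from 30.2 to 276 FPKM at week 4 (limma adjusted p = 0.0665).

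Of 24 potassium and sodium channel genes 12 were below sham at week 1 (median -0.34), where 7.92% of all genes were. At week 4 11 were (median -0.26), where 4.75% of all genes were. Between the weeks 2 rose and 1 fell, against 2.56% and 32% of all genes. The median of this list moved by 0.02. Kcnd2 and Kcnip2, the pore and an accessory subunit of the transient outward current, stood at -0.61 and -0.84 at week 1 and at -0.83 and -0.54 at week 4.

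**Figure D4:**
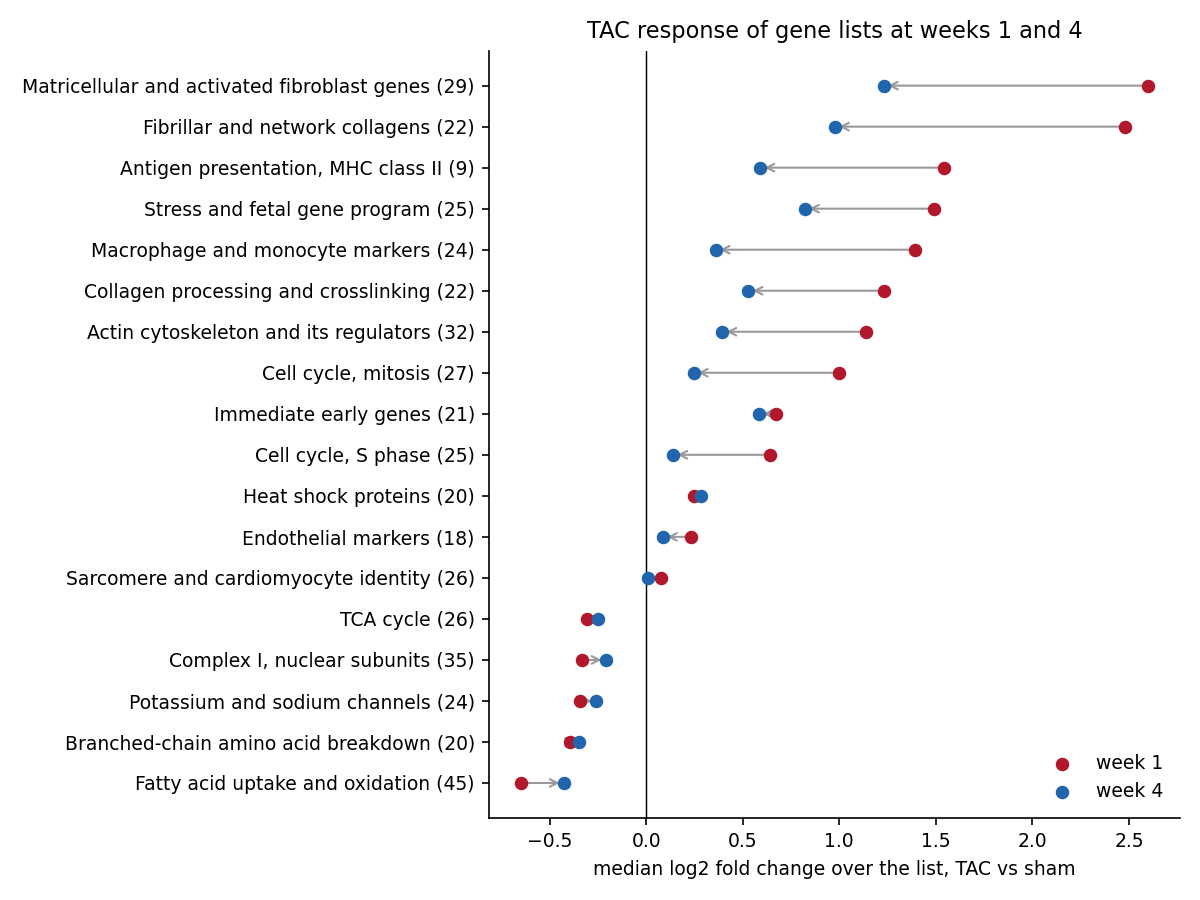
Median log2 fold change of TAC vs. sham (horizontal axis) over the tested members of 18 gene lists (rows, number tested in brackets), at week 1 in red and at week 4 in blue. Collagens went from 2.48 to 0.98, macrophage markers from 1.39 to 0.36 and mitosis genes from 1.00 to 0.25, while stress and fetal genes went from 1.49 to 0.82 and channel genes from -0.34 to -0.26.

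Genes of mitochondrial metabolism moved upward, by smaller amounts. Idh2, the mitochondrial NADP-dependent isocitrate dehydrogenase (chr7:87239732-87260278, minus strand, mm9), held 671, 568, 405 and 648 FPKM in WTTAC hearts and 618, 695, 599.6 and 771.5 FPKM in KOTAC hearts at week 1. Week 4 hearts held 1090.3, 1002, 953 and 966 FPKM in WTTAC hearts and 1035, 930.2, 971 and 869 FPKM in KOTAC hearts. Every week 4 heart was above every week 1 heart and within the range of the sham hearts (845 to 1346 FPKM). Idh2 rose by 0.67 (SE 0.11, limma adjusted p = 3.96e-06), and by 0.56 relative to sham (limma adjusted p = 0.00613).

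Of 45 genes for the uptake and oxidation of fatty acids 23 rose and 0 fell (median 0.32). Relative to sham 2 rose, Lpl, lipoprotein lipase (0.40, limma adjusted p = 0.00825), and Hadhb, a subunit of the trifunctional protein (0.37, limma adjusted p = 0.0204), and the 3 scalings called 7 to 12 higher and 0 lower. At week 1 37 of the 45 were below sham (median -0.65) and at week 4 27 were (median -0.43). Acadm, medium-chain acyl-CoA dehydrogenase, spanned 179 to 308 FPKM at week 1 and 275 to 409 FPKM at week 4, against 358 to 513 FPKM in sham hearts. It rose by 0.49 (SE 0.114, limma adjusted p = 0.000689), and the excess over the sham change, 0.33, was not called (limma adjusted p = 0.122). Ech1 rose by 0.70 (limma adjusted p = 0.0014), from -1.48 to -0.88 below sham. Without WTTAC heart 2 of week 4, 17 of the 45 were called higher in TAC hearts.

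The other mitochondrial lists moved the same way, with few calls relative to sham. Of 26 TCA cycle genes 8 rose (1 relative to sham, 4 to 9 under the scalings), of 35 nuclear complex I subunits 10 rose (0 relative to sham by limma, 1 to 7 under the scalings), of 32 subunits of complexes III to V 11 rose (0 relative to sham by limma, 1 to 3 under the scalings), and of 20 genes of branched-chain amino acid breakdown 7 rose (0 relative to sham by limma, 2 to 6 under the scalings). None of their members fell. For complex I the sham median itself moved by 0.13 and the TAC median by 0.24. At week 1, 25 complex I subunits were below sham and at week 4 3 were, whereas branched-chain genes went from 14 to 13. Without WTTAC heart 2 the rises numbered 5 for complex I, 5 for complexes III to V and 5 for the TCA cycle.

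Of 25 genes of glucose uptake and glycolysis 8 fell and 1 rose (median -0.15), a share equal to the 32% of all genes called lower, among them the lactate exporter Slc16a3 (-0.97), Ldha (-0.37) and Pgk1 (-0.35). Median-of-ratios scaling called 9 higher and 2 lower, so the direction of this list turned with the scaling. The same holds for ribosome biogenesis (0 higher and 4 lower of 30, against 6 higher and 0 lower), translation factors (0 and 4 of 25, against 2 and 1) and calcium handling (2 and 4 of 23, against 5 and 1). Within calcium handling, Hrc, which binds calcium in the sarcoplasmic reticulum, rose by 0.52 (limma adjusted p = 0.00139) and by 0.50 relative to sham (limma adjusted p = 0.0395), and Fkbp1b, which stabilizes the ryanodine receptor, fell by 0.57. Of 26 sarcomere genes 7 rose, among them Myl2 (0.41), and 1, Tpm1, fell (-0.24), and Myh6 was listed at 0 in 4 of 16 sham hearts and is not compared.

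The genes that rose most included Aqp1, a water channel of endothelium (chr6:55286426-55298549, plus strand, mm9). It held 76.4, 73.7, 43.7 and 84.1 FPKM in WTTAC hearts and 75.0, 80.8, 74.6 and 75.7 FPKM in KOTAC hearts at week 1. At week 4 it held 130.4, 133, 112 and 105 FPKM in WTTAC hearts and 126, 119, 146 and 239 FPKM in KOTAC hearts. Every week 4 heart was above every week 1 heart, and KOTAC heart 5 stood out upward. Aqp1 rose by 0.90 (SE 0.184, limma adjusted p = 0.000132), from -0.68 below to 0.30 above sham, the latter not called. Scd4, a stearoyl-CoA desaturase (1.01), Gsta3, a glutathione transferase (0.91), Fmo2 (0.83), Myoc (0.75), Cpxm2 (1.00), the ligand Efnb3 (0.84) and the mitochondrial ribosomal RNA mt-Rnr2 (0.84) rose as well, with Gm13943 (1.08) the largest. Relative to sham the 10 largest rises also held Chic2 (0.83), Tuba8 (0.81) and Gsn (0.72).

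Genes outside of these groups fell by as much as the matrix. Serpinb1a, an inhibitor of neutrophil proteases (chr13:32933961-32943054, minus strand, mm9), held 28.7, 35.2, 73.8 and 2.78 FPKM in WTTAC hearts and 22.8, 10.5, 21.7 and 5.17 FPKM in KOTAC hearts at week 1. At week 4 it ranged from 1.18 to 3.36 FPKM, and WTTAC heart 5 of week 1 was the heart it overlapped. Serpinb1a fell by 2.70 (SE 0.284, limma adjusted p = 1.44e-09). Its difference from sham at week 4 was 0.09 with KOSH heart 1, which held 5.44 FPKM against 0.999 to 1.08 FPKM in the other KOSH hearts, and 0.30 (SE 0.279, limma adjusted p = 0.501) without that heart. Clu, clusterin, an extracellular chaperone, went from 488 to 3216 FPKM to 201 to 629.5 FPKM and fell by 2.09 (SE 0.268, limma adjusted p = 4.24e-08), from 2.84 to 0.53 above sham. Sprr2a2, a cornified envelope protein with near-identical copies in its cluster, whose reads may be split among them, fell by 2.35. Tnnt3, fast skeletal troponin T, fell by 1.69 (limma adjusted p = 2.29e-09) and led the 2 of 6 skeletal muscle markers that fell. The summed FPKM of 8 skeletal markers was 4.01 to 13.9 at week 1 and 2.67 to 6.46 at week 4.

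The shares of the integrated stress response and antioxidant lists that fell did not exceed the 32% of all genes called lower. Of 20 integrated stress response genes and mitokines 4 fell (median -0.20), among them Sesn2 (-0.42), Psat1 (-0.73) and Pycr1 (-0.78), and Gdf15, from 2.61 to 1.65 above sham, was not called (limma adjusted p = 0.168). Of 22 genes of endoplasmic reticulum folding 10 fell and 0 rose (median -0.20), where 32% of all genes fell. The falls were led by the cyclophilins Ppic (-1.39) and Ppib (-0.72), and under the scalings 1 or 2 were higher and 4 or 5 lower. Of 23 antioxidant genes 7 fell and 3 rose (median -0.14), among the falls Gpx3 (-1.36) and Cybb, the phagocyte NADPH oxidase (-1.08), and under the scalings 6 to 8 were higher and 3 to 5 lower. Of 20 heat shock proteins 2 rose, the mitochondrial chaperonins Hspd1 (0.33) and Hspe1 (0.29). Above sham were 10 of the 20 at week 1, a share near the 54.5% of all genes, and 8 at week 4, where 11.2% of all genes were. Of 28 cytosolic ribosomal proteins 2, Rpl3 (-0.53) and Rplp0 (-0.39), fell.

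Of 21 immediate early genes 5 fell (median -0.10), a smaller share than the 32% of all genes, led by Egr2 (-0.79). Above sham were 13 of the 21 at week 1, where 54.5% of all genes were, and 14 at week 4, where 11.2% were. Under the scalings 2 or 3 immediate early genes were called higher and 1 lower. No gene of the circadian clock (17) or of the glucocorticoid response (14) was called by limma (1 or 2 clock genes were higher under the scalings), and Pdk4, of the latter, changed by 0.89 (limma adjusted p = 0.176). The 4 adipocyte and 5 erythroid markers had 0 calls by limma, but all 5 erythroid markers leaned upward (median 0.62, Hba-a1 0.62 with limma adjusted p = 0.0613) and 3 to 5 were called higher under the scalings. The summed FPKM of 8 erythroid markers was 1020 to 2660 at week 1 and 1690 to 4090 at week 4. Of the lung and thymus markers 1, Cd4, which T cells carry, passed the filter and fell (-0.31).

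Within genotype, WTTAC hearts had 275 genes higher (2.01%) and 3939 lower (28.9%) at week 4, and KOTAC hearts had 22 higher (0.161%) and 662 lower (4.85%). The median of all genes moved by -0.18 and -0.09. Collagens fell in both, 20 of 22 in WTTAC and 14 of 22 in KOTAC (medians -1.85 and -1.17), and macrophage markers fell for 19 and 14 of 24 (medians -1.22 and -0.72). Mitosis genes fell for 25 of 27 in WTTAC and 3 of 27 in KOTAC (medians -1.12 and -0.43), actin genes for 31 and 0 of 32 (medians -0.83 and -0.35), and fatty acid genes rose for 22 and 1 of 45 (medians 0.43 and 0.19). For Cthrc1 the changes were -4.54 and -2.84, for Postn -3.27 and -1.17, and for Top2a -1.78 and -0.67.

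These counts do not show that the genotypes differ. The difference of the TAC change between KO and WT hearts was called by limma for 0 genes (smallest adjusted p = 0.0568, 832 at an unadjusted p under 0.05), for 1 to 3 without trend or without filter, for 179 with array weights and for up to 108 when 1 heart, WTTAC heart 5 of week 1, was left out. The KOTAC count rested on single hearts, being 62 without KOTAC heart 1 of week 4, 63 without KOTAC heart 3 of week 1 and 1500 without KOTAC heart 6 of week 1. Relative to sham, 4038 genes were lower (29.6%) and 36 higher (0.264%) in WT hearts, and 1 was lower in KO hearts (0.00732%), Tnnt3 (-2.34, SE 0.364, limma adjusted p = 0.000558).

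Weeks 2 and 8 were compared with sham in the same way. TAC vs. sham hearts had 5427 genes higher (39.7%) and 2824 lower (20.7%) at week 2, and 4674 higher (34.2%) and 1309 lower (9.59%) at week 8. In 4 of the 8 TAC hearts of week 2, WTTAC hearts 3 and 4 and KOTAC hearts 3 and 4, log2 expression fell with gene length, with slopes of -0.12 to -0.0991 per doubling of length, against -0.0479 to 0.0605 in the hearts of weeks 1 and 4. Without these 4 hearts the week 2 counts were 4461 higher and 1082 lower, and the part of the length slope in the other week 2 values was not tested. Fewer genes, 1523, were higher at week 4, whose groups hold WTTAC heart 2 and KOSH heart 1. From week 1 to week 8, TAC hearts had 5233 genes lower (38.3%) and 555 higher (4.07%). The collagen median above sham was 2.48, 1.91, 0.98 and 1.19 at weeks 1, 2, 4 and 8, and the macrophage median 1.39, 0.93, 0.36 and 0.37. Mitosis genes stood at 1.00, 0.57, 0.25 and 0.10, with 26, 26, 8 and 2 of 27 called above sham. MHC class II genes went from 1.54 and 0.91 to 0.59 and 0.05. Stress and fetal genes stood at 1.49, 0.86, 0.82 and 1.21 and matricellular genes at 2.60, 1.80, 1.23 and 1.96, so that for these the lowest median was that of week 4 and not of week 8. For stress and fetal genes week 2 was nearly as low. WTTAC heart 2 of week 4 lay at 0.11 for them, against 0.68 to 1.01 in the other WTTAC hearts. Cthrc1 spanned 0.171 to 10.99 FPKM at week 2 and 0.432 to 3.73 FPKM at week 8, Lox 2.42 to 16.9 FPKM and 3.10 to 29.2 FPKM, and Nppb 596 to 1843 FPKM and 194 to 2879 FPKM.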

How the data were processed

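RNA from whole cardiac tissue (RIN of at least 8) was sequenced from TruSeq libraries, 1 per heart, in 16 groups of 4 hearts. Per the labels, the authors checked reads with FastQC, aligned them to the mouse genome (mm9) with TopHat and computed FPKM with Cufflinks, whose versions are not given in the sources used here. Deposited FPKM values of 30285 gene entries were used, all columns being mapped (0 without a sample). FPKM depends on the library total, so a few abundant genes can shift all others, and it carries no depth.

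Log2(FPKM + 1) was fitted by limma 3.58.1 (R 4.3.3, trended eBayes) as 16 group means over all 64 hearts (48 residual degrees of freedom), for genes that reached an FPKM of 1 in 4 or more libraries. P-values were adjusted over all 13653 genes. The fit was tested on simulated data. Python 3.11.15 (pandas 2.3.3, numpy 2.4.6, matplotlib 3.10.9) was used for tables and plots. The members and the 45 gene lists were chosen with earlier results of these data known. Named genes were Ndufs4, the 10 largest called rises and falls of the TAC change and of the TAC change minus the sham change with the same sign in both genotypes, and, from each list, the 4 members of largest test statistic, while the hearts' values were shown for genes such as Top2a, Nppb, Tmsb10, Timp1, Ctgf, Myh7 and Ech1, and Lyve1, Cd163, Col4a3, Col4a4, Col11a1, Tnc, Trem2, Cxcl14, Thbs4, Cilp, Ankrd1, Xirp2, Gdf15, Kcnd2 and Kcnip2 were named, after their values were seen. Ranking left out small RNA entries, entries spoiled into dates, and genes listed at 0 in any of the 32 hearts while their median value above 0 exceeded 20 FPKM. Symbols were placed on mm9 with the annotation of that build, and promoters came from RefSeq (GRCm38.p6). Alternatives were another pseudocount, filter, scaling, weighting, sample set, replicate block and leaving out each heart. Leaving out WTTAC heart 2 with KOSH heart 1 of week 4, and subtracting the median of all genes, were added after the data were seen. A few genes that the rule would name are not reported here.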

Additional observations from a re-analysis of the deposited data

Results flagged for a closer look

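Single hearts stood apart from the other 3 of their group for 22 of 288 sets of gene and group (levels in FPKM), where about 14.4 are expected by chance (1 in 20).

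WTTAC heart 5 of week 1 was far below its group for Cthrc1 (5.17 against 69.1 to 102), Ms4a7 (3.92 against 25.5 to 27.6), Ctgf (68 against 320 to 371) and Tmsb10 (22.6 against 42.3 to 43.9). KOTAC heart 6 of week 1 was low for Tmsb10 (18.7 against 30.9 to 34). Both belong to the week from which the acute genes were chosen.

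At week 4, WTTAC heart 2 was low for Timp1, a protease inhibitor (3.02 against 18.4 to 23.8), and high for Myh6 (3600 against 2800 to 2920). WTTAC heart 3 was high for C3ar1 (2.18 against 1.14 to 1.24) and KOTAC heart 3 for Myl7 (16.6 against 0 to 0.585).

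Among sham hearts, KOSH heart 1 of week 4 was high for Timp1 (65.9 against 2.17 to 3.02), Lox (3.28 against 0.965 to 1.07) and Serpinb1a (5.44 against 0.999 to 1.08), low for Ces1d (15.9 against 28.4 to 30.9) and listed at 0 for Myh6 (the other 3 at 3150 to 3610). Myh6 was also listed at 0 in KOSH heart 3 of week 1 (the others at 3100 to 3410). The remaining sham values that stood apart were Lox in WTSH heart 4 of week 1 (0.567 against 1.01 to 1.03), Serpinb1a in KOSH heart 4 of week 1 (1.4 against 0.993 to 1.02), Ms4a7 in KOSH heart 4 of week 4 (0.496 against 1.41 to 1.46), C3ar1 in WTSH heart 4 of week 4 (1.74 against 0.865 to 0.889), Nppb in WTSH heart 3 of week 4 (218 against 299 to 316), and Myh7 (346 against 575 to 585) and Cd74 (35.9 against 50.9 to 53.1) in WTSH heart 1 of week 4.

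The change from week 1 to week 4 differed between TAC and sham hearts for 3565 genes by the test of the difference itself in limma.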

How the results depend on the processing

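Counts of called genes depended on scaling, filter and single hearts more than on the pseudocount or the trend. The values are those of the TAC change, of the TAC change minus the sham change, of the genes called at week 1 whose change was called in the opposite direction (3500 as reported, any fold), of WTTAC and KOTAC alone, and of the percent of acute genes of one genotype that moved against their acute direction in the other (85 for genes chosen in WT and 95.6 for genes chosen in KO).

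A filter at an FPKM of 5 gave 2974, 2293, 2267, 2655 and 330 genes, with fewer genes tested. Median-of-ratios scaling gave 1431 genes for the TAC change minus the sham change, 1401 receded, 383 in KOTAC and 85.9% for genes chosen in WT. Quantile normalization gave 1572, 1538 and 355 genes for the same 3 counts, and turned the TAC change of Nop2 (0.00772, limma adjusted p = 0.926). Changes less the median of all genes, chosen after seeing the data, gave 3037, 975, 958, 2372 and 136 genes, and 96.4% for genes chosen in KO. With a fold change of at least 2 the counts were 227, 260, 259, 439 and 68, and 923 and 114 for TAC vs. sham at weeks 1 and 4. Acute genes of at least 2-fold gave 720 receded, 93.8% and 97%.

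Array weights gave 10 genes in sham hearts, 5148 for TAC vs. sham at week 4, 2040 in KOTAC, 179 for the genotype difference, and 73.6% and 91.6%. The genotype difference was 3 without a filter, with 82.4% and 93.9%, and 1 without trend. The 32 hearts of weeks 1 and 4 alone gave 409 in KOTAC, with 83.5% and 94.2%. Without 4 TAC libraries of week 2 that showed a gene length bias, the counts were 3368 for TAC vs. sham at week 4 and 1196 in KOTAC, with 83.3% and 94.1%. Without WTTAC heart 2 and KOSH heart 1 of week 4, chosen after seeing the data, they were 2278 for the TAC change minus the sham change and 2235 receded, with 76.6% and 93.6%.

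Leaving out each heart in turn gave 3801 to 5465 genes for the TAC change, 2806 to 4394 relative to sham, 2766 to 4314 receded, 7956 to 8706 and 1424 to 2841 for TAC vs. sham at weeks 1 and 4, 0 to 0 in sham hearts, 2799 to 5198 in WTTAC, 62 to 1500 in KOTAC, 0 to 108 for the genotype difference, and 76.6% to 89.1% and 93.5% to 97% across genotypes. The week 4 count was 1424 without WTTAC heart 3 of week 4, the WTTAC count 2799 without WTTAC heart 2 of week 4, and the KOTAC count 211 without KOTAC heart 1 of week 1 and 397 without KOTAC heart 3 of week 4. Hearts with the same replicate number did not deviate together (correlations of -0.247 to 0.0264 in 6 TAC pairs and -0.15 to 0.0174 in 8 sham pairs), and a replicate block gave 4960 genes for the TAC change and 3835 relative to sham, and moved no count by more than 1.5 times. FPKM gives no depth, so precision rests on 4 hearts a group. The causes of these differences were not tested.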
